A study of Mus musculus with 2 samples.

Results

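In an asynchronous culture of mouse myoblasts, nuclei with a high share of DNA replication transcripts were compared with nuclei with a low share, within 1 library of unmodified nuclei. C2C12 is a mouse myoblast line that divides in growth medium and fuses into myotubes when it differentiates. The nuclei came from myoblast cultures near confluence, were fixed in methanol, and were profiled by droplet single-nucleus RNA-sequencing (Chromium v3) either directly (the standard library) or after yeast poly(A) polymerase had added poly(A) tails in situ (the tailed library). Each condition was 1 library of the same line, so the nuclei of a library share their culture and their library preparation, and no p-value was computed.

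The standard library held 1123 nuclei with more than 750 unique molecular identifiers (UMIs) in the kallisto matrix, of 2451 such nuclei with STAR counts in both libraries. They were ranked by the share of their STAR UMIs that fell in 19 genes of the replication machinery: Mcm2, Mcm3, Mcm4, Mcm5, Mcm6, Mcm7, Pcna, Rrm1, Rrm2, Tyms, Gins2, Cdc6, Cdc45, Uhrf1, Chaf1b, Rfc2, Fen1, Ung and Dtl. The 25% of nuclei with the highest share (280 nuclei, the high group) were compared with the 25% with the lowest share (280 nuclei, the low group), and the 281 lower-middle and 282 upper-middle nuclei between them gave the intermediate levels. Because these 2 groups were chosen by the 19 genes, the values of those genes are a description of the choice and not a result.

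Before S phase, the origin recognition complex and Cdc6 load the Mcm2 to Mcm7 helicase onto DNA, and Cdc45 and the GINS complex turn it into the moving helicase. DNA polymerases, the sliding clamp Pcna with its loader, and enzymes that make deoxynucleotides then act at the fork. Many genes of this machinery are transcribed together around the G1/S transition under E2F transcription factors. Histone genes of the replication-dependent class are also expressed in S phase, but their mRNAs end in a conserved stem-loop and carry no poly(A) tail.

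The ranking rested on few molecules per nucleus. The low group held 321 UMIs of the 19 genes among 1426922 STAR UMIs (0.0225%), and the high group held 2247 among 1547611 (0.145%). The median nucleus had 1 such UMI in the low group, 3 in the lower-middle, 4 in the upper-middle and 7 in the high group, and 71 nuclei, all in the low group, had none. The last nucleus inside the low group had a share of 0.0411% and the first outside it 0.0412%, and at the upper limit the values were 0.109% on both sides. The groups are ranges of this share, and the cut does not bear on whether they hold separate types of nucleus. Depth differed little: the median nucleus had 4315 STAR UMIs in the low group, 4595 in the lower-middle, 4569.5 in the upper-middle and 4422.5 in the high group.

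**Figure D1:**
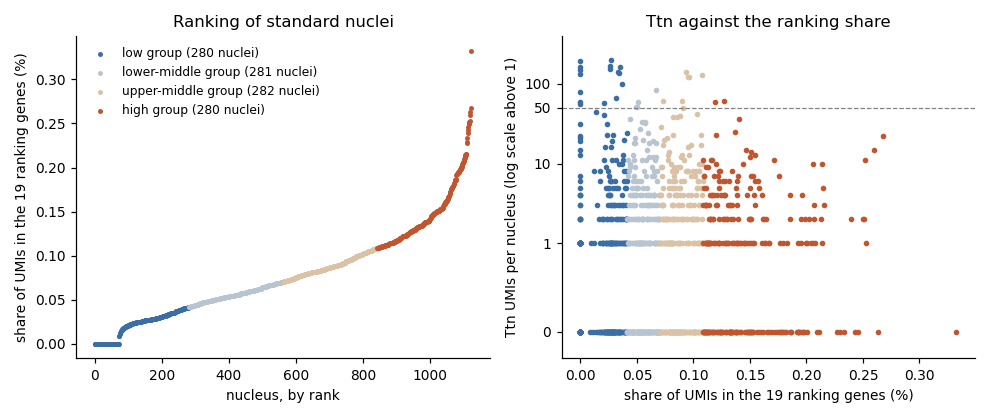
Left, the share of STAR UMIs in the 19 ranking genes (percent) for each of the 1123 standard nuclei in rank order, colored by group; the 71 nuclei at 0 start the series and no gap separates the groups. Right, UMIs of Ttn in each nucleus (log scale above 1) against the same share, with a dashed line at 50 UMIs; 16 of the nuclei on or above the line lie in the low group and 2 in the high group.

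The share of reads in these genes was not 0 in barcodes that hold little RNA. In the kallisto matrix, 226358 barcodes with 1 to 100 UMIs had 0.118% of their UMIs in the 19 genes (95% exact binomial interval 0.114% to 0.122%), against 0.0278% (0.0222% to 0.0341%) in the low group and a share of 516 in 343549 UMIs in the high group (interval 0.138% to 0.164%). The low-UMI barcodes thus had a higher share than the low group and a lower one than the high group. All intervals here and in the following paragraphs cover counting error only.

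The culture carried myoblast markers in both groups, at levels that differed between the markers. The muscle determination factor Myod1 had 12 UMIs in the low and 14 in the high group, the satellite cell cadherin Cdh15 had 50 and 62, and the muscle intermediate filament Des had 394 and 460. Of 12 markers of other cell types, the 3 endothelial genes summed to 11 and 11 UMIs (10 of the 11 in the high group and all 11 in the low group were Pecam1), the 3 immune genes to 1 and 8, the 3 neural genes to 18 and 32 and the 3 epithelial genes to 4 and 4. The defining markers Cdh5 and Ptprc had 0 and 0, and 0 and 1 UMIs.

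Across the genome, 7769 genes outside the ranking list had at least 50 STAR UMIs in both groups together. Levels are given as CPM, the UMIs of a gene scaled to all STAR UMIs of its group, and differences as the log2 ratio of high to low CPM. The median gene had a log2 ratio of 0.12, so positive values should be read against that shift. Malat1 alone took 10.1% of the UMIs in the low group and 6.25% in the high group. At least 1.5-fold higher in the high group were 628 genes (8.08%), and at least 1.5-fold lower were 180 genes (2.32%), and these shares are the background for each list below.

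Among the ranking genes, the markers of the group showed the choice itself. Mcm6, a subunit of the replicative helicase, went from 9.81 CPM in the low group through 31.4 and 47.5 to 88.5 CPM in the high group. Dtl, which targets licensing factors for degradation on chromatin, went from 20.3 through 24.6 and 57.3 to 98.2 CPM. Rrm2, the regulatory subunit of ribonucleotide reductase, went from 10.5 through 38.8 and 48.2 to 60.7 CPM. The largest contribution in UMIs came from Rfc2, a subunit of the clamp loader, with 66 UMIs in the low and 422 in the high group, followed by Uhrf1, which binds hemimethylated DNA, with 41 and 248.

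To give values that the choice did not fix, each gene was left out and the nuclei were ranked again by the other 18. All 19 genes then still had a log2 ratio above 0, with a median of 0.89, against 2.87 when each gene took part in its own ranking. The ratio was at least 1.5-fold for 14 genes, and the counting interval lay above 0 for 13. Among these 13, the intervals of Rrm1 (from 0.08) and Pcna (from 0.09) began below 0.12, the all-gene median under the full ranking. The highest values were those of Mcm5 with 23 UMIs in the low and 82 in the high group (log2 ratio 1.76, interval 1.08 to 2.49), the licensing factor Cdc6 with 23 and 68 (1.44, 0.74 to 2.19) and the helicase cofactor Cdc45 with 28 and 68 (interval 0.54 to 1.89). Mcm6 had 46 and 101 UMIs (0.96) and Dtl had 55 and 110 (0.89, 0.41 to 1.38).

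Rrm2 was the lowest of the 19 by this measure, with 53 UMIs in the low and 65 in the high group (0.18, -0.36 to 0.73). Its interval included 0, as did those of Mcm2, Mcm4, Mcm7, Gins2 and Ung. Ranked by the 13 genes other than Mcm2 to Mcm7, the helicase subunits together had 229 and 390 UMIs (0.67, 0.43 to 0.91). Most of the size of the ratios under the full ranking therefore came from the gene's own counts, and the left-out ratios were of the order seen for the replication genes that took no part in the ranking.

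**Figure D2:**
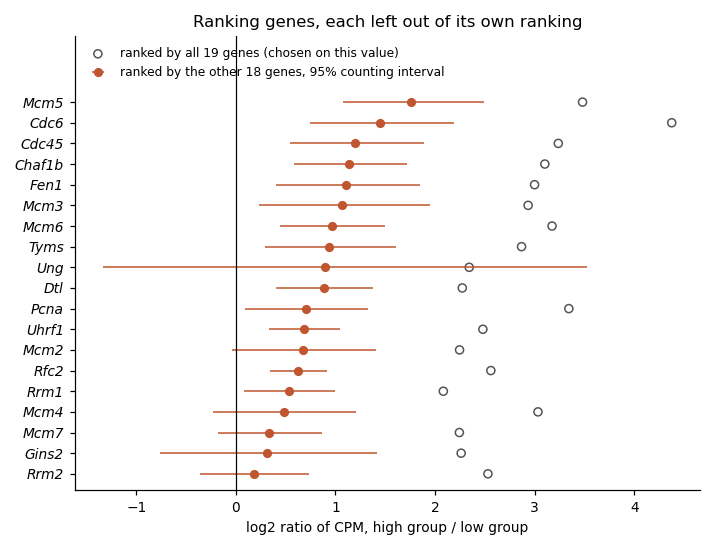
Log2 ratio of CPM (high over low group) for the 19 ranking genes. Filled points with 95% counting intervals rank the nuclei by the other 18 genes and lie between 0.18 (Rrm2) and 1.76 (Mcm5); open points use the gene in its own ranking and have a median of 2.87.

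E2F sites are one feature that replication promoters can share, so the 200 bases before the annotated start of each protein-coding gene (GRCm39, GENCODE M39 canonical transcripts) were searched on both strands for the 8-base forms TTTGGCGC, TTTCCCGC, TTTGCCGC and TTTCGCGC. At least 1 match was found in 3 of the 19 ranking genes (15.8%), in 7 of 131 other replication genes (5.34%), in 6 of 64 replication-dependent histone genes (9.38%), in 3 of 32 genes of E2F and G1/S control (9.38%) and in 417 of 21614 promoters overall (1.93%). Among genes outside the ranking list that were tested, 27 of 616 that were at least 1.5-fold higher held a match (4.38%), against 197 of 6791 that were in neither group (2.90%) and 6 of 166 that were at least 1.5-fold lower (3.61%). The windows below are the 3 ranking genes with a match and Pola1, with the marker Dtl, which had none, for comparison, and capitals mark the matches. Where 2 matches on opposite strands overlap, as in Mcm5 and Mcm6, they form 1 run of capitals.
Mcm4 promoter, chr16:15455265-15455464 (- strand): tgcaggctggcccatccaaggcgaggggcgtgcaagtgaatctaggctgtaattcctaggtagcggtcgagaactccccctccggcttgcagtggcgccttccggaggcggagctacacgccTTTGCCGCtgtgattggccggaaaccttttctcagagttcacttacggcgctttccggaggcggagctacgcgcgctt
Mcm5 promoter, chr8:75835940-75836139 (+ strand): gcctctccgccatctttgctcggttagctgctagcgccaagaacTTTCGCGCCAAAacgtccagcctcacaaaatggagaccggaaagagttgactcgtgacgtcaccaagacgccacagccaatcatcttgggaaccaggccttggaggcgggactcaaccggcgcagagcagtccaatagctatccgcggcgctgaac
Mcm6 promoter, chr1:128287453-128287652 (- strand): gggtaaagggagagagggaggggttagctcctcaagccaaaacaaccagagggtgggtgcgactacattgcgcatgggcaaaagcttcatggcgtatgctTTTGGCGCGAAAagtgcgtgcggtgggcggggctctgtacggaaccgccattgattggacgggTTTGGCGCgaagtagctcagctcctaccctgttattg
Pola1 promoter, chrX:92675814-92676013 (- strand): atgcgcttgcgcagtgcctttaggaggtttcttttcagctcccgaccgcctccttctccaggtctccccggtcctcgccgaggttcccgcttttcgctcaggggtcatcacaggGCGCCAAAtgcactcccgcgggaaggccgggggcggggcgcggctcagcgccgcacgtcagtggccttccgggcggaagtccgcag
Dtl promoter, chr1:191307670-191307869 (- strand): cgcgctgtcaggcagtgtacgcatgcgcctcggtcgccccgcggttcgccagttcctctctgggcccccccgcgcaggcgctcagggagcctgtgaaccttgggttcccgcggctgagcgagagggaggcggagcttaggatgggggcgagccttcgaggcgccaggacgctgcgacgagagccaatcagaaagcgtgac
In Mcm6 the matches began 100, 96 and 37 bases before the start, in Mcm5 156 and 152, in Mcm4 78 and in Pola1 86 bases before it. A match is a description of these letters and not a measured binding site. These 5 windows were chosen after the matches were seen. The 2 other motifs searched on both strands, CCAAT and the E-box CAGCTG, gave other orders of the lists. CCAAT was in 10 of the 19 ranking genes (52.6%), 47 of 131 other replication genes (35.9%) and 6983 of 21614 promoters overall (32.3%), but also in 37 of 62 G2/M genes (59.7%) and 51 of 64 replication-dependent histone genes (79.7%). CAGCTG was in 0 of the 19 ranking genes, 13 of 131 other replication genes (9.92%), 11 of 49 myogenic genes (22.4%) and 2113 promoters overall (9.78%).

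Genes of the replication machinery that took no part in the ranking were higher in the high group as a group. Of 131 such genes, 113 had at least 50 UMIs, 66 of them were at least 1.5-fold higher (58.4%, against 8.08% of all genes) and 0 at least 1.5-fold lower (2.32% of all genes). The median log2 ratio was 0.64, and 109 of 113 were above 0. Over all genes the 25th percentile was -0.07 and the median 0.12, so values above 0 were common. Summed over all 131 genes, without a minimum, the list went from 10425 UMIs in the low to 17446 in the high group (log2 ratio 0.63, interval 0.59 to 0.66). By level it went from 7306 CPM in the low group through 8558 and 9548 to 11273 CPM in the high group.

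Licensing and helicase genes included 3 of the largest differences. Of 21 measured, 13 were at least 1.5-fold higher, and the median log2 ratio was 0.63. Wdhd1, which couples the helicase to DNA polymerase alpha, had 62 UMIs in the low and 164 in the high group (1.29, 0.86 to 1.73), and was found in 50 and 106 nuclei. Orc6, of the origin recognition complex, had 42 and 103 (1.18, 0.65 to 1.73), Gins1, a GINS subunit, had 49 and 115 (1.11, 0.62 to 1.63), Orc1 had 24 and 69 (1.41, 0.72 to 2.14) and Mcm8, a helicase of recombination repair, had 15 and 47 (1.53, 0.67 to 2.48).
The list was not uniform. Orc4, another subunit of the origin recognition complex, had 78 and 87 UMIs (0.04, -0.42 to 0.50), and Dbf4, the activator of the Cdc7 kinase, had 97 and 100 (-0.07, -0.49 to 0.34), both with intervals that include 0.

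Polymerase and clamp genes had the highest median of the lists, 0.79, with 16 of 22 measured genes at least 1.5-fold higher. The DNA polymerase alpha-primase complex, which starts each new strand, was higher in its 3 named subunits. Pola1, its catalytic subunit, went from 187 through 240 and 270 to 370 CPM (267 and 572 UMIs in the low and high group, log2 ratio 0.98). Pola2 had 59 and 140 UMIs (1.13, 0.68 to 1.59) and Prim2, the large primase subunit, had 90 and 212 (1.12, 0.76 to 1.49). The clamp-associated factor Pclaf had 23 and 59 UMIs (1.24, 0.52 to 2.00), and Rnaseh2a, the catalytic subunit of the enzyme that removes ribonucleotides from DNA, had 26 and 63 (1.16, 0.48 to 1.88).
The lowest members were Top1, the topoisomerase that relaxes DNA ahead of forks and of transcription, with 269 and 299 UMIs (0.04, -0.21 to 0.28), and Pole4, an accessory subunit of DNA polymerase epsilon, with 35 and 33 (-0.20, -0.93 to 0.53).

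For nucleotide supply, 8 of 14 measured genes were at least 1.5-fold higher, with a median of 0.60. Dtymk, thymidylate kinase, had 60 UMIs in the low and 132 in the high group (1.02, 0.57 to 1.49), and Atic, of purine synthesis, had 26 and 48 (0.77, 0.05 to 1.52). Cad, the first enzyme of pyrimidine synthesis, had 44 and 47 (-0.02, -0.65 to 0.60), and Gmps, of guanine nucleotide synthesis, had 52 and 65 (0.20, -0.34 to 0.76).

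In fork protection and repair, 18 of 34 measured genes were at least 1.5-fold higher, with a median of 0.66. Tonsl and Mms22l, partners in a complex that acts at stalled forks, had 33 and 77 UMIs (1.11, 0.50 to 1.74) and 67 and 147 UMIs (1.02, 0.59 to 1.46). Zgrf1 had 124 and 268 (0.99, 0.68 to 1.31). Parpbp had 97 and 108 (0.04, -0.37 to 0.45), and Fancc, of the Fanconi anemia core complex, had 83 and 84 (-0.10, -0.55 to 0.36).

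Chromatin assembly and DNA methylation genes held the 2 highest ratios among all 5392 genes with at least 100 UMIs outside the ranking list. Hat1, which acetylates newly made histone H4, went from 33.6 through 49.9 and 70.1 to 87.2 CPM (48 and 135 UMIs, log2 ratio 1.37, interval 0.89 to 1.88). Asf1b, a chaperone of new histones H3 and H4, had 35 and 97 UMIs (1.35, 0.78 to 1.95). Hells, a chromatin remodeler required for DNA methylation, had 122 and 281 UMIs (1.09, 0.77 to 1.41), and the maintenance methyltransferase Dnmt1 had 176 and 300 (0.65, 0.38 to 0.93). Of 23 measured genes 12 were at least 1.5-fold higher, with a median of 0.61, and the lowest were the abundant chromatin proteins Hmgb2, with 81 and 104 UMIs (0.24, -0.19 to 0.68), and Hmgb1, with 184 and 231 (0.21, -0.07 to 0.50).

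Among the 5392 genes with at least 100 UMIs, the 12 highest by ratio held 4 that were on none of these lists. They were Vrk1, a chromatin kinase, with 46 and 119 UMIs (1.25, 0.75 to 1.78), the nuclear pore component Nup188 with 52 and 131 (1.22, 0.74 to 1.71), the augmin subunit Haus8 with 31 and 74 (1.14, 0.51 to 1.79) and the RNA exosome subunit Exosc2 with 30 and 71 (1.13, 0.49 to 1.79). The other 8 were Hat1, Asf1b, Wdhd1, Orc6, Pola2, Prim2, Gins1 and Tonsl. Leaving out the 5 nuclei with the most UMIs of each of the 4 genes gave ratios of 1.10 for Vrk1, 1.21 for Nup188, 0.91 for Haus8 and 1.21 for Exosc2.

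**Figure D3:**
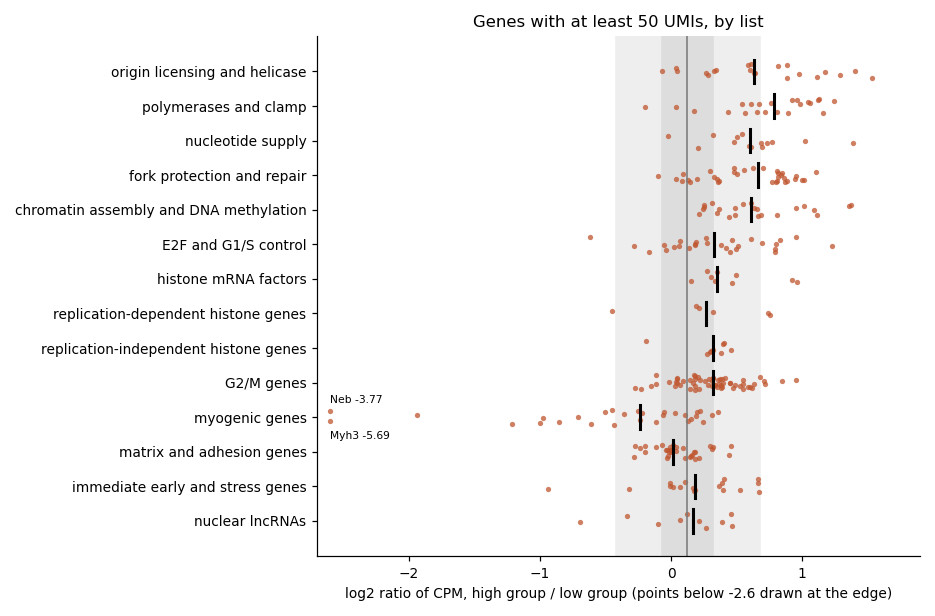
Log2 ratio of CPM (high over low group) for each gene with at least 50 UMIs, 1 row per list, with the list median as a black bar; the grey line is the median of all genes (0.12) and the shaded bands span the 25th to 75th and the 5th to 95th percentiles of all genes. The 5 replication lists have medians from 0.60 to 0.79, the histone, G2/M and G1/S lists from 0.27 to 0.35, and the myogenic list -0.23, with Neb and Myh3 drawn at the left edge.

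Genes of E2F and G1/S control differed less than the replication machinery. Of 28 measured, 8 were at least 1.5-fold higher (28.6%, against 8.08% of all genes), with a median of 0.33. At least 1.5-fold lower was 1 (E2f4, 3.57% of the list, against 2.32% of all genes). E2f1, an activator E2F, had 26 UMIs in the low and 66 in the high group (1.23, 0.55 to 1.94), and E2f7, a repressor of the same targets, had 58 and 112 (0.83, 0.36 to 1.32). Ccne2, the cyclin E2 gene, had 31 and 65 (0.95, 0.31 to 1.62); in the exonic kallisto matrix it had only 5 and 3 UMIs.
Other regulators of G1 lay on both sides of the all-gene median of 0.12. Ccnd1, cyclin D1, had 175 and 228 UMIs (0.26, -0.03 to 0.56), and the CDK inhibitor Cdkn1a had 45 and 59 (0.27, -0.31 to 0.87). Cyclin D3 (Ccnd3) had 157 and 140 (-0.28, -0.62 to 0.06) and E2f4, the E2F of resting cells, had 44 and 31 (-0.62, -1.33 to 0.07), and both intervals lay below that median.

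Replication-dependent histone genes had a smaller ratio than the other replication genes in this ranking, but their median rested on few genes and varied with the nuclei and the matrix used. The 64 genes summed to 776 UMIs in the low and 962 in the high group (log2 ratio 0.19, interval 0.05 to 0.33), with 1019 and 1078 in the middle groups. By level the list went from 544 through 628 and 657 to 622 CPM. Only 6 genes had at least 50 UMIs, of which 2 were at least 1.5-fold higher, and their median was 0.27. Among nuclei with over 1500 kallisto UMIs the median was 0.70, next to 0.74 for the other replication genes, whereas it was -0.06 when counted and -0.08 when ranked in the kallisto matrix. The 58 core histone genes together had 161 and 193 UMIs (0.14, -0.16 to 0.46 for a sum of genes of which 40 had any UMI), so a difference smaller than that interval was not detectable at this depth. Depth is not the only limit, since the standard library captures poly(A) tails, which these mRNAs lack. How well its counts represent histone mRNA was not tested.

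Most of these UMIs came from linker histone H1 genes, which compact nucleosome arrays. H1f4 had 268 UMIs in the low and 362 in the high group (0.32, 0.08 to 0.55), H1f5 had 151 and 190 (0.21, -0.10 to 0.53), H1f3 had 68 and 84 (0.19, -0.29 to 0.67) and H1f1 had 31 and 56 (0.74, 0.08 to 1.42). H1f2 had a ratio below 0, with 97 and 77 (-0.45, -0.90 to -0.00), and its interval ended at 0. The H1 ratios thus had both signs in this ranking, and the intervals of H1f5 and H1f3 included 0. With nuclei ranked in the kallisto matrix, the ratios of H1f4 and H1f1 fell below 0.

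H2ac24, a core histone H2A gene, was the highest histone gene, with 36 UMIs in 31 nuclei of the low group and 66 UMIs in 51 nuclei of the high group (0.76, 0.15 to 1.39). In the kallisto matrix it had 9 and 103 UMIs, which brought the summed core histones there to 103 and 201 (0.85, 0.50 to 1.21). Of its kallisto UMIs in the high group, 71.1% lay in 4 nuclei with 18841 to 33773 STAR UMIs each, while in the STAR matrix no nucleus of either group had more than 4 UMIs of it. Without H2ac24 the core histones had 94 and 98 kallisto UMIs (-0.05, -0.47 to 0.37) and 125 and 127 STAR UMIs (-0.09, -0.46 to 0.27). Core histone genes are near-identical copies of each other, and neither the labels nor the methods say how the STAR counts treat reads shared between copies, so single histone genes are uncertain.

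The stem-loop that ends these mRNAs was looked for from 1500 bases before to 100 bases after the annotated end of each gene. It was present in 56 of 64 replication-dependent genes (87.5%), in 1 of 11 replication-independent histone genes (H2ax) and in 24 of 21539 other protein-coding genes (0.111%). The stem-loops of the histone genes with the most UMIs are shown with 5 bases on each side, and capitals mark the stem-loop. H1f3 had no match in its window.
H2ac24 stem-loop: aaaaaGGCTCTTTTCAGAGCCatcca
H1f1 stem-loop: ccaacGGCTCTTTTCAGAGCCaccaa
H1f2 stem-loop: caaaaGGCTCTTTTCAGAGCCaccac
H1f4 stem-loop: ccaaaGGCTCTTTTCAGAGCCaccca
H1f5 stem-loop: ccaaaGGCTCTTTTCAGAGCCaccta
The 5 genes carry the same 16-base stem-loop, although H1f1 had the highest and H1f2 the lowest ratio of the H1 genes named.

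The factors that make histone mRNA included genes with larger differences. Slbp, which binds the stem-loop and is counted in the polymerase list as well, had 36 UMIs in the low and 74 in the high group (0.92, 0.33 to 1.54). Casp8ap2, a component of the histone locus body, had 140 and 296 (0.96, 0.67 to 1.26), and Npat, which activates histone transcription there, had 64 and 98 (0.50, 0.03 to 0.98). The cleavage factor Cpsf3 had 44 and 53 (0.15, -0.45 to 0.76), and the decay factor Upf1 had 102 and 134 (0.28, -0.11 to 0.66). Of 9 measured factors 2 were at least 1.5-fold higher (22.2%, against 8.08% of all genes), with a median of 0.35. Replication-independent histone genes, whose mRNAs carry a poly(A) tail, had 0 of 9 at least 1.5-fold higher, near the 8.08% of all genes. Their median was 0.32: H2az1 had 137 and 204 UMIs (0.46, 0.14 to 0.78) and H3f3a had 58 and 55 (-0.19, -0.75 to 0.36).

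G2/M genes differed less than the other replication genes. Of 60 measured, 9 were at least 1.5-fold higher (15.0%, against 8.08% of all genes) and 0 lower (2.32% of all genes). The median was 0.32 (95% order-statistic interval over the genes 0.20 to 0.38), above the all-gene median of 0.12. By level the list went from 6571 through 7870 and 8121 to 7978 CPM, so the high group lay between the 2 middle groups. Of the main mitotic genes, topoisomerase Top2a had 586 UMIs in the low and 793 in the high group (0.32, 0.16 to 0.48). Its interval lay above the all-gene median of 0.12. The proliferation marker Mki67 had 690 and 894 (0.26, 0.11 to 0.40), Cdk1 had 78 and 108 (0.35, -0.08 to 0.79), and cyclin B1 (Ccnb1) had 42 and 47 (0.05, -0.59 to 0.68). The intervals of Mki67, Cdk1 and Ccnb1 included that median.
The highest were Cdc20, activator of the anaphase-promoting complex, with 21 and 44 UMIs (0.95, 0.17 to 1.77), and Aurkb, a mitotic kinase, with 37 and 72 (0.84, 0.25 to 1.46). Aspm, a spindle pole protein, was the lowest with 174 and 156 (-0.27, -0.60 to 0.05).

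Nuclei were also ranked by the share of their UMIs in the G2/M genes. Of the 280 nuclei of the high replication group, 62 fell in the 25% with the highest G2/M share (22.1%, 95% exact binomial interval 17.4% to 27.5%), against 60 of 280 in the low replication group (21.4%, 16.8% to 26.7%), 78 of 281 lower-middle (27.8%) and 80 of 282 upper-middle nuclei (28.4%). The 25% with the lowest G2/M share held 106 nuclei of the low and 42 of the high replication group. The 2 replication groups thus held nearly equal numbers of G2/M-high nuclei and unequal numbers of G2/M-low nuclei.

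**Figure D4:**
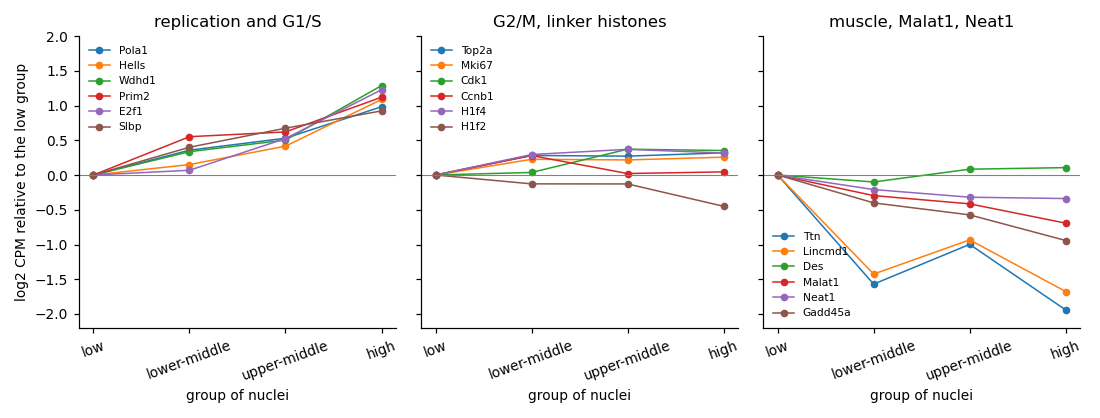
Log2 CPM relative to the low group in the 4 groups of standard nuclei, for a selection of the genes named in the text. The replication and G1/S genes drawn climb to between 0.92 (Slbp) and 1.29 (Wdhd1) in the high group, the G2/M and linker histone genes drawn stay between -0.45 (H1f2) and 0.35 (Cdk1), and Ttn (-1.94), Lincmd1 (-1.68), Gadd45a (-0.94), Malat1 (-0.69) and Neat1 (-0.34) are lower in the high group.

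Genes of differentiated muscle were among the lowest, and Myh3, Neb and Ttn were the 3 lowest of the 5392 genes with at least 100 UMIs. Of 29 measured myogenic genes, 0 were at least 1.5-fold higher and 9 at least 1.5-fold lower (31.0%, against 2.32% of all genes), with a median of -0.23. Myh3, embryonic myosin heavy chain, had 143 UMIs in the low group and 3 in the high group (log2 ratio -5.69, interval -7.99 to -4.12). Neb, the thin filament ruler nebulin, had 126 and 10 (-3.77, -4.87 to -2.85), and the giant sarcomere protein titin (Ttn) had 2827 and 798 (-1.94, -2.06 to -1.83). Tnnc1, cardiac and slow troponin C, had 77 and 36 (-1.21, -1.83 to -0.63).
Other genes of the myoblast lay near the all-gene median: Myod1 (0.11, -1.11 to 1.35), Des (0.11, -0.09 to 0.30) and Six4 with 44 and 61 UMIs (0.35, -0.23 to 0.95) had intervals that include 0.

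The UMIs of Myh3 lay in few nuclei, while Ttn was found in 175 of 280 nuclei of the low group and 171 of 280 of the high group. In the low group, 56.9% of the Ttn UMIs were in the 10 richest nuclei. Summed over the myogenic list, the level went from 5682 through 3967 and 4394 to 3776 CPM, with per-nucleus medians of 15, 17, 17 and 16 UMIs. Myh3 was found in 15 of 280 nuclei of the low group, and 91.6% of its UMIs there were in the 10 richest. Nuclei with at least 50 Ttn UMIs numbered 16 in the low group (5.71%, 95% exact binomial interval 3.30% to 9.11%), 4 in the lower-middle, 7 in the upper-middle and 2 in the high group (0.714%, 0.0866% to 2.56%). The 16 nuclei held 141 of the 143 Myh3 UMIs, had a median of 5555.5 STAR UMIs and together held 15 UMIs of the ranking genes. Without the Ttn-rich nuclei, Myh3 was left with 2 and 3 UMIs, Ttn had a log2 ratio of -0.43, Neb of -1.65 and Tnnc1 of -0.23, and the median of the myogenic list was 0.01. Since these nuclei were picked by their Ttn counts and more lay in the low group, the move of Ttn toward 0 was fixed by the choice.

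The other 8 of the 12 lowest genes were outside the myogenic list. Lincmd1, a muscle long noncoding RNA, had 392 UMIs in the low and 133 in the high group (-1.68, -1.97 to -1.39), and -0.56 without the Ttn-rich nuclei. The muscle ubiquitin ligase Fbxo32 had 153 and 60 (-1.47, -1.92 to -1.03), and Dgkg, a diacylglycerol kinase, had 107 and 44 (-1.40, -1.94 to -0.88); both stayed near these values without the Ttn-rich nuclei, at -1.42 and -1.37. Dlg2, a synaptic scaffold, had 89 and 48 (-1.01, -1.55 to -0.49; -0.31 without the Ttn-rich nuclei) and Crebrf had 81 and 44 (interval -1.56 to -0.45).
Ell2, an elongation factor, had 501 and 181 UMIs (-1.59, -1.84 to -1.34), and Glrx, glutaredoxin, had 146 and 51 (-1.63, -2.12 to -1.17). The genes are neighbors on chromosome 13, with 67491 bases between them, and 1 nucleus with 5070 STAR UMIs held 139 of the Ell2 and 64 of the Glrx UMIs. Without the 5 richest nuclei of each gene the ratios were -0.67 for Ell2, -0.49 for Glrx and -0.74 for Fbxo32. These nuclei were picked by the gene's own counts over both groups. Where they lie mostly in the group with more UMIs, leaving them out moves the ratio toward 0 by construction.

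The nuclear long noncoding RNAs Malat1 and Neat1 were lower in the high group. Malat1, an abundant nuclear RNA of nuclear speckles, took 10.1% of UMIs in the low group, 8.23% in the lower-middle, 7.58% in the upper-middle and 6.25% in the high group (log2 ratio -0.69, interval -0.70 to -0.68). The highest count in a single nucleus was 5754 UMIs in the low and 1708 in the high group, and without the 5 richest nuclei the ratio was -0.58. Neat1, the scaffold of paraspeckles, went from 4388 through 3795 and 3516 to 3470 CPM (-0.34, -0.39 to -0.29). With ribosomal, mitochondrial and Malat1 UMIs removed from the totals, and the nuclei ranked again by their share of what remained, the all-gene median was 0.02 in place of 0.12.
Protein-coding genes took 72.3% of the UMIs in the low group and 77.1% in the high group, and mitochondrial genes 0.148% and 0.117%. Thinned to 3423 UMIs each, the median nucleus had 1837 detected genes in the low group (41 shallower nuclei left out), 1864 in the lower-middle (27), 1894 in the upper-middle (17) and 1919 in the high group (27). Without thinning the medians were 2177, 2361, 2345 and 2295.5. The part of nuclear RNA quality in these gradients was not tested.

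The medians of the matrix and stress lists lay near the all-gene median. Of 33 matrix and adhesion genes 0 were at least 1.5-fold higher (8.08% of all genes) and 0 lower (2.32%), with a median of 0.02. Of 18 immediate early and stress genes 3 were higher (16.7%) and 1 lower (5.56%), with a median of 0.18. The lower gene was Gadd45a, a DNA damage-induced growth arrest gene, which went from 70.8 through 53.6 and 47.5 to 36.8 CPM (101 and 57 UMIs, -0.94, -1.44 to -0.46), and the 3 higher genes were Ier2 with 22 and 38 UMIs, Trib3 with 32 and 55 and Ier3 with 28 and 48.

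The same ranking was applied to the tailed library, whose nuclei the choice had not used. Its 1328 nuclei gave groups of 332, with 65 UMIs of the ranking genes in the low and 1324 in the high group, and 279 of the 332 nuclei of its low group had none. The median nucleus had 0 such UMIs in its low group and 3 in its high group. These nuclei were tailed with the RNase inhibitor SUPERase-In, which the paper reports failed to protect longer transcripts when tissue sections were tailed. Its effect on these nuclei was not tested. At least 1.5-fold higher there were 896 of 5365 genes (16.7%), and at least 1.5-fold lower 37 (0.69%), with an all-gene median of 0.29. Counts assigned to Peak1 took 30.9% of UMIs in the low and 27.4% in the high group, and those of the 18S ribosomal RNA entry (Rn18s) 14.6% and 16.1%. Both are part of the totals behind each CPM of that library. Which RNA gave the reads assigned to Peak1 was not tested.

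Replication genes outside the ranking were higher in that library too. Of 81 measured, 54 were at least 1.5-fold higher (66.7%, against 16.7% of all genes) and 0 lower (0.69% of all genes). The median was 0.76, and 81 of 81 were above 0, as was the 25th percentile of all genes there (0.08). The nucleotide supply list was the exception, with 2 of 6 measured genes higher and a median of 0.31, next to the all-gene median of 0.29. Of the 12 highest genes of the standard library 10 were measured, all 10 were above the all-gene median there and 8 were at least 1.5-fold higher, among them Orc6 with 12 UMIs in the low and 46 in the high group (log2 ratio 2.04) and Hat1 with 23 and 47 (1.14). Pola1 had 92 and 229 (1.42). Of the 12 lowest 9 were measured, with a median of -0.61: Myh3 had 61 and 3 UMIs (-4.24), Ttn 1739 and 670 (-1.27), Neb 39 and 13 (-1.48) and Lincmd1 145 and 60 (-1.17), while Fbxo32 had 25 and 25. The myogenic list as a whole had a median of 0.13 there, against -0.23 in the standard library. At least 1.5-fold higher were 3 of 22 measured genes (Eya1, Myh10 and Musk), 13.6% against 16.7% of all genes. At least 1.5-fold lower were 4 (Myh3, Tnnc1, Ttn and Neb), 18.2% against 0.69% of all genes.

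The tailed library measured histone mRNA more deeply and gave a ratio at its all-gene median. Its 64 replication-dependent histone genes had 2718 UMIs in the low and 3147 in the high group (log2 ratio 0.32, interval 0.24 to 0.39), next to an all-gene median of 0.29. Of 15 genes with at least 50 UMIs 1 (H4c8) was at least 1.5-fold higher (6.67%, against 16.7% of all genes), and their median was 0.30. Core histones had 748 and 832 UMIs (0.26, 0.11 to 0.40) and linker histones 1970 and 2315 (0.34, 0.25 to 0.42). Malat1, at 0.622% and 0.675% of UMIs, was not lower in its high group.

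**Figure D5:**
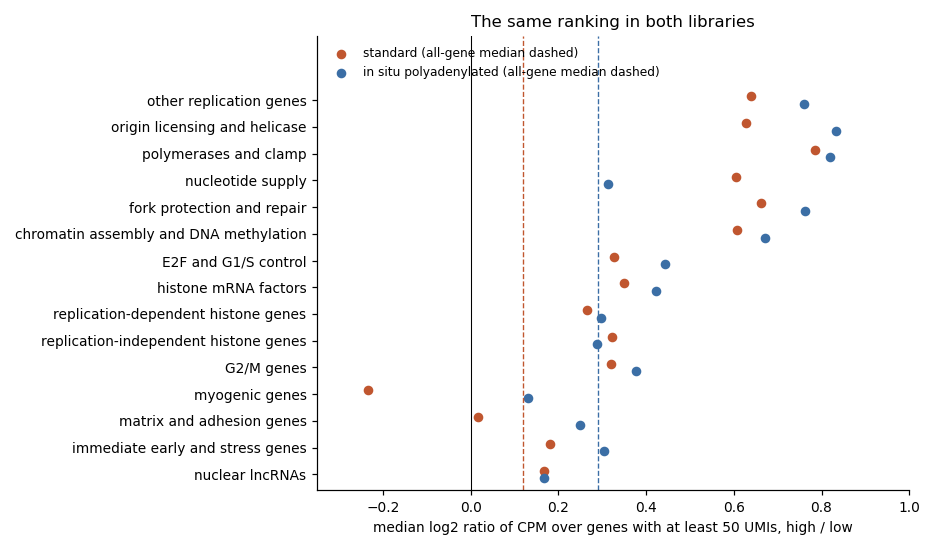
Median log2 ratio of CPM (high over low group) for each list in the standard and the tailed (in situ polyadenylated) library, each ranked by the same 19 genes; dashed lines are the medians of all genes, 0.12 and 0.29. The replication-dependent histone median lies at 0.27 and 0.30 and the other replication genes at 0.64 and 0.76.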

How the data were processed

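Nuclei of the C2C12 line were profiled in 2 droplet libraries (Chromium v3), 1 standard and 1 after in situ polyadenylation. Per the labels and the study's methods, the authors trimmed reads with cutadapt 3.4 and mapped them to GRCm39 with GENCODE M28. The deposited STAR 2.7.10a matrices give UMI counts as whole numbers for each gene in each barcode, and their totals are several times those of the exonic matrices. The deposited kallisto 0.48.0 and bustools 0.41.0 matrices hold estimated counts, rounded to whole numbers per nucleus before summing. Nuclei had more than 750 kallisto UMIs, and no nucleus of either library had 5% or more mitochondrial UMIs. In the tailed library 7 of 1335 such barcodes had no STAR counts and were left out. No doublet caller was run. The 2 libraries shared 13 STAR barcodes, and no barcode was a nucleus in both.

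Nuclei were ranked by the share of STAR UMIs in 19 genes, UMIs were summed over the 280 nuclei at each end, and the log2 ratio of CPM was taken without a pseudocount, with an exact conditional Poisson interval at 95%. Where 1 group had no UMI, the ratio used 3 UMIs in its place. Genes needed 50 UMIs in both groups together, and a gene was counted as higher or lower past 1.5-fold. No test was run, since each group is 1 library. Genes were named by rule: all ranking genes, the 12 highest and 12 lowest with at least 100 UMIs, up to 3 highest and 2 lowest of each list, and a fixed set of cell cycle and muscle genes. Members, lists and alternatives were chosen with earlier results of these data known. Of 55414 genes, 54749 matched the annotation GENCODE M39. The code, run in Python 3.11.15 with numpy 2.4.6, scipy 1.17.1 and pandas 2.3.3, was tested on simulated counts. Some genes that the naming rule selects are not reported here, though they remain in the counts and medians.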

Additional observations from a re-analysis of the deposited data

Results flagged for a closer look

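Standard barcodes at or under the minimum of 750 kallisto UMIs were not used in any comparison, and 7351 of them have STAR counts. They had 0.0875% of their STAR UMIs in the 19 ranking genes (95% exact binomial interval 0.0860% to 0.0891%). The 1123 nuclei used here had 0.0786% (0.0764% to 0.0809%).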

How the results depend on the processing

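No paired analysis was possible because each condition is 1 library, and the compared groups are nuclei of the same library. Of 101 alternative values for 7 summary results, 80 stayed within the order-statistic interval of the list median over its genes or of the depth ratio over nuclei, or within 1.5-fold for a count, and 21 moved further. Of 60 values for the list medians 4 changed sign, all within that interval. The median log2 ratio of the other replication genes stayed above the median of all genes throughout: it was 0.33 with nuclei ranked in the kallisto matrix, 0.52 with nuclei over 500 UMIs, 0.53 with 374 and 0.77 with 112 nuclei per group, 0.53 after thinning and 0.52 without Mcm2 to Mcm7 in the ranking. The G2/M median was 0.20 with the kallisto ranking (all-gene median 0.13) and 0.11 over 500 UMIs (all-gene median 0.07). It was 0.60 over 1500 UMIs (192 nuclei, all-gene median 0.19) and 0.13 after thinning (all-gene median 0.08). The G2/M median thus lay close to the all-gene median in these settings, except over 1500 UMIs. The numbers of genes at least 1.5-fold higher and of genes at least 1.5-fold lower depend on the counts per gene: 309 and 38 when counted in the kallisto matrix (1832 genes), 1073 and 517 with at least 20 UMIs (10165 genes), 101 and 17 with at least 200 UMIs (3122 genes), and 394 and 276 without ribosomal, mitochondrial and Malat1 UMIs in the totals. There were 361 higher genes of 9214 over 500 UMIs, 408 of 7823 after thinning, and 79 lower genes of 7749 with the kallisto ranking. Over 1500 UMIs, 738 of 4348 genes were higher, a count within 1.5-fold of the main one though fewer genes were tested. Counts were judged by number and not by share of the genes tested. For the myogenic genes, median log2 ratio -0.23, that interval (-0.61 to 0.11) included 0, and the median was 0.05 with 112 nuclei per group, -0.03 counted in the kallisto matrix, -0.0054 with the kallisto ranking, -0.013 over 1500 UMIs, -0.06 with at least 200 UMIs and, as an alternative chosen after seeing the data, 0.01 without nuclei rich in Ttn. The histone median (0.27 over 6 genes) was -0.06 counted in the kallisto matrix, -0.08 with the kallisto ranking and 0.70 over 1500 UMIs. Single genes that reversed were Lincmd1 (0.11) and Ccne2 (-0.85) counted in the kallisto matrix, and with the kallisto ranking Mki67, log2 ratio -0.015, H1f4, log2 ratio -0.092, and H1f1, log2 ratio -0.071. The cause was not tested. Of 98 genes, leaving out the 5 nuclei richest in the gene, also chosen after seeing the data, moved 10. The median of 1 to 7 ranking UMIs per nucleus limits the ranking.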
